A study of Homo sapiens with 12 samples.

Results

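Histone marks were examined around the start sites of 6 genes of fatty acid synthesis in HepG2 cells, an established human hepatocellular carcinoma line. The members were the peaks of 3 deposited lists that had at least 1 bp within 30 kb of the start site of FASN, SCD, SREBF1, MLXIPL, ACLY or THRSP. They numbered 185 of the 273551 peaks on chromosomes 1 to 22 and X. H3K27ac contributed 64 of 66513, H3K4me1 100 of 182592 and H3K4me3 21 of 24446. The start sites were given with the rule as GRCh37 positions, and 3 of the 6 lie on chromosome 17. At the edge of the windows, the last peak inside was an H3K27ac peak 29645 bp from the SREBF1 start (signal value 3.82), and the first outside an H3K4me1 peak 30111 bp from the THRSP start (4.91).

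The series used chromatin immunoprecipitation and sequencing (ChIP-seq) of untreated HepG2 cells, with 3 libraries for each of the marks and 3 controls. The controls were titled input but carried an anti-mouse IgG antibody label. The stated purpose of the series was to rank candidate causal variants by the marks they lie in. Each deposited list pools the 3 libraries of a mark, so there was no value per culture, no spread between replicates and no test, and the values describe the pooled lists only. The depth of the libraries is unknown. The labelled cell type was not checked against marker genes, because start sites of other genes in the build of the peaks were not used here.

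De novo lipogenesis turns surplus carbohydrate into fatty acids in the cytosol of the hepatocyte. ACLY (ATP citrate lyase) cleaves citrate to acetyl-CoA, FASN (fatty acid synthase) builds palmitate from acetyl-CoA and malonyl-CoA, and SCD (stearoyl-CoA desaturase) introduces the double bond that yields oleate and palmitoleate. The enzymes are induced by the transcription factors SREBP-1, encoded by SREBF1 and activated downstream of insulin and liver X receptors, and ChREBP, encoded by MLXIPL and activated by glucose metabolites. THRSP (Spot 14) is a small protein induced by thyroid hormone and carbohydrate feeding that is linked to lipogenesis in liver and fat. Among the marks, H3K4me3 is found mainly at promoters, H3K4me1 at enhancers and promoter flanks, and H3K27ac at active promoters and enhancers.

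The promoter sequences are shown because the start sites differed in their marks, THRSP standing apart from the others. A link between promoter sequence and marks was not tested. RefSeq entries of GRCh38.p14 were matched for 5 of the 6 genes, and FASN was not among them. Each line gives the 250 bases before the RefSeq start, 5′ to 3′ on the strand of the gene. Capitals mark GGGCGG, the core of an SP1 site, and CCAAT, the core of an NF-Y site, on either strand (CCGCCC and ATTGG on the opposite strand). The positions are chr17:17836987-17837236 (-) for SREBF1, chr7:73624523-73624772 (-) for MLXIPL, chr17:41919023-41919272 (-) for ACLY, chr10:100346983-100347232 (+) for SCD and chr11:78063611-78063860 (+) for THRSP. For ACLY the first of 2 entries is shown. These positions were not converted to the build of the peaks.
SREBF1: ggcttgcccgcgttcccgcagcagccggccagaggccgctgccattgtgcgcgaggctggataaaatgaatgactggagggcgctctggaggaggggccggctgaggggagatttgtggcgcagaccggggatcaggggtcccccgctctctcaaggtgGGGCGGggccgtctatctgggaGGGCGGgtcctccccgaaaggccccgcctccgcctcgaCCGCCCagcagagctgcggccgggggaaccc
MLXIPL: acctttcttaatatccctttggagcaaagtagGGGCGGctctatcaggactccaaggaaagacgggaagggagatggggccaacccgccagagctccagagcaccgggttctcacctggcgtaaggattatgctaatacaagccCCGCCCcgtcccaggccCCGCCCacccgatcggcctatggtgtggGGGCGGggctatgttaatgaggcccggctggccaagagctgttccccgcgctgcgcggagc
ACLY: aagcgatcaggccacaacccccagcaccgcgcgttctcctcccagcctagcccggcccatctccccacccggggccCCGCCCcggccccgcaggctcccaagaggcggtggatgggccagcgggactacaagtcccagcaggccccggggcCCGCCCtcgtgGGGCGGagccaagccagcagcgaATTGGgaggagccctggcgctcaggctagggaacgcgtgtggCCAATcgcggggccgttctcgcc
SCD: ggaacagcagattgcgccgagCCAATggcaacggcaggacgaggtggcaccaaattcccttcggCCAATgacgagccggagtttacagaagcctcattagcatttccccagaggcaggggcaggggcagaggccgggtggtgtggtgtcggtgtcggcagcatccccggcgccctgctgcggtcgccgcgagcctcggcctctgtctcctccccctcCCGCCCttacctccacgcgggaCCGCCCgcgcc
THRSP: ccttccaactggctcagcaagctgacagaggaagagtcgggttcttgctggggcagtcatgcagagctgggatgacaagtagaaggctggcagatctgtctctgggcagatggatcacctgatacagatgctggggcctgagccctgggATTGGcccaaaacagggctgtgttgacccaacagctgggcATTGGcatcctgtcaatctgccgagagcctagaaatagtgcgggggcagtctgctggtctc

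GGGCGG occurred in the promoters of MLXIPL (4 matches), SREBF1 (3), ACLY (3) and SCD (2), and not in that of THRSP. It was present in 42.6% of 35116 RefSeq promoter stretches of the same length. CCAAT occurred 2 times each in SCD, ACLY and THRSP and was present in 32% of all promoters. THRSP had 3 CpG dinucleotides, against 16 in MLXIPL, 22 in SREBF1 and 23 in both SCD and ACLY. The median over all promoters was 11 (interquartile range 3 to 23). The E-box CACGTG (6.34% of all promoters), the paired E-box of carbohydrate response elements, CACGTG 2 times with 5 bases between (0.00285%), the sterol response element form TCACNCCAC (0.883%) and its longer form, with A before it and C in place of N (0.0342%), direct repeats of AGGTCA with 4 bases between (0.0142%) or 1 (0.0171%), TATAAA (10.7%) and CAAAGTCCA (0.325%) were not found in these 5 stretches. Those letters were searched on both strands, and their absence says nothing about binding outside the window or at variant sites.

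Of the 6 start sites, 5 lay inside an H3K4me3 peak and inside an H3K27ac peak: those of SREBF1, MLXIPL, ACLY, FASN and SCD. The THRSP start lay in neither and was the only one inside an H3K4me1 peak. A share over all gene starts was not computed here. The H3K4me1 count depended on processing, with 0 starts when equal numbers of peaks per list were taken and 2 when peaks within 1000 bp were joined. The plots of the whole windows and of the 4 kb around the starts show these arrangements.

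**Figure D1:**
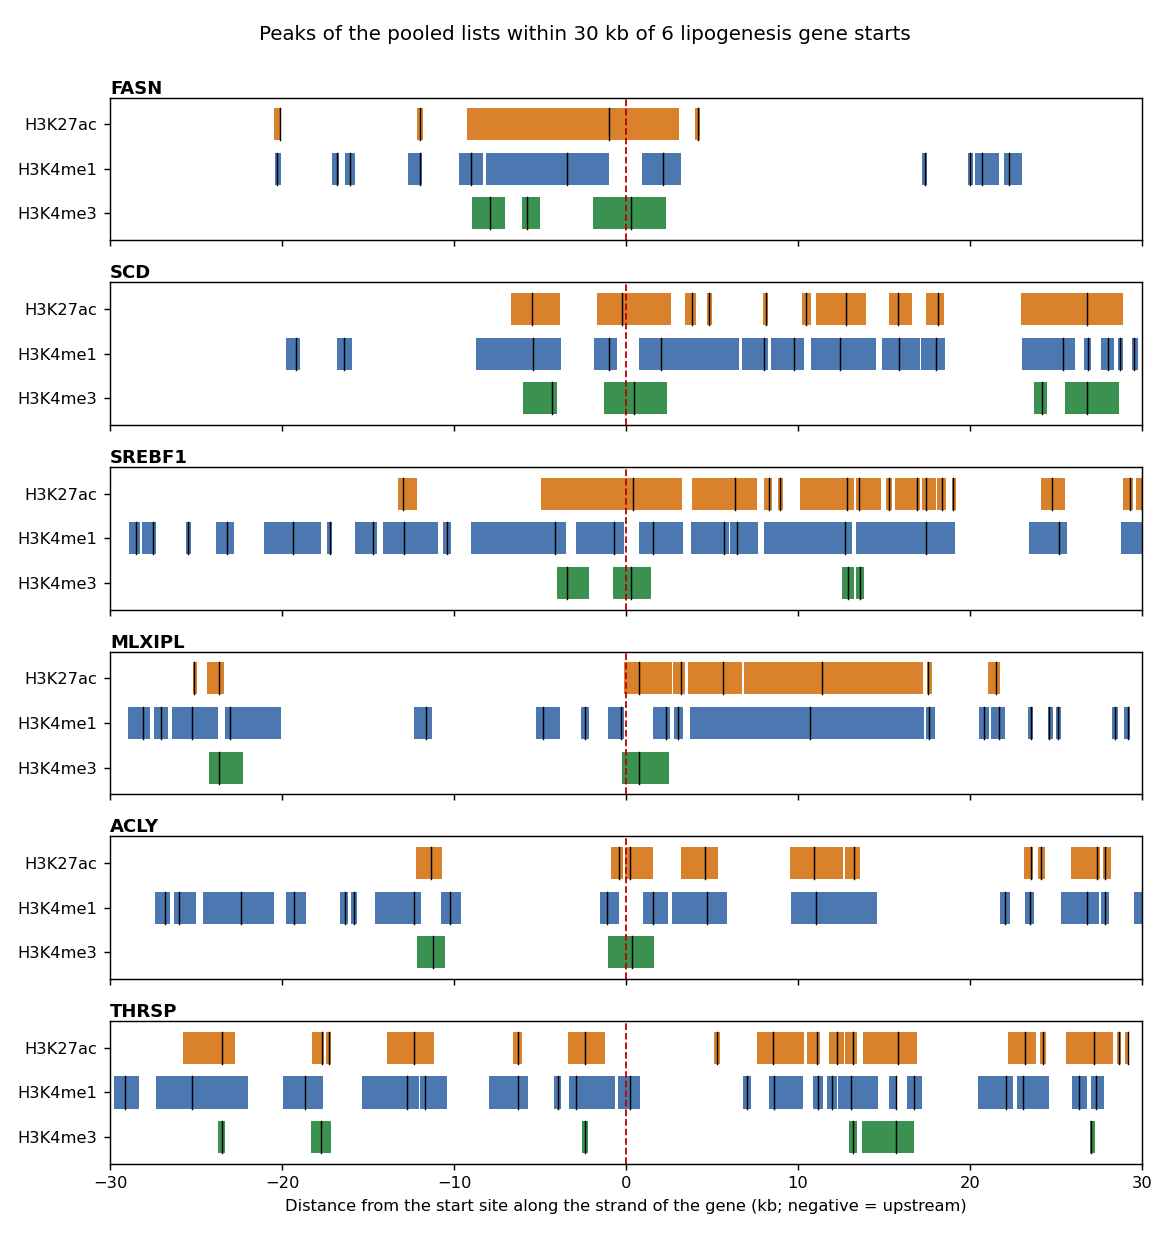
Peaks of H3K27ac (orange), H3K4me1 (blue) and H3K4me3 (green) within 30 kb of the 6 start sites, by distance in kb along the strand of each gene; black ticks are summits and the dashed line is the start. H3K27ac and H3K4me3 cross the line in 5 windows and stop short of it in that of THRSP.

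Signal values are those of the authors' peak caller and were ranked only within a list. H3K4me3 at the start was strongest for FASN, at 73.9, followed by MLXIPL at 73.0, SREBF1 at 64.5, ACLY at 56.2 and SCD at 46.9. These values were higher than those of 98.9%, 98.8%, 96.4%, 91.2% and 81.1% of the H3K4me3 list, whose median was 13.3. All 5 were in its upper quartile, above 41.9. H3K27ac at the start spread more widely. FASN had 61.3, SREBF1 52.3 and MLXIPL 38.1, higher than 99.6%, 99.0% and 96.7% of that list, while ACLY had 17.2 (85.6%) and SCD 13.1 (81.5%). The median of the H3K27ac list was 3.15. The 3 genes with the highest values were therefore the same for both marks, with SREBF1 and MLXIPL in exchanged order, and SCD was lowest for both. The H3K4me1 peak at the THRSP start had a signal value of 3.76, near the list median of 3.42.

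**Figure D2:**
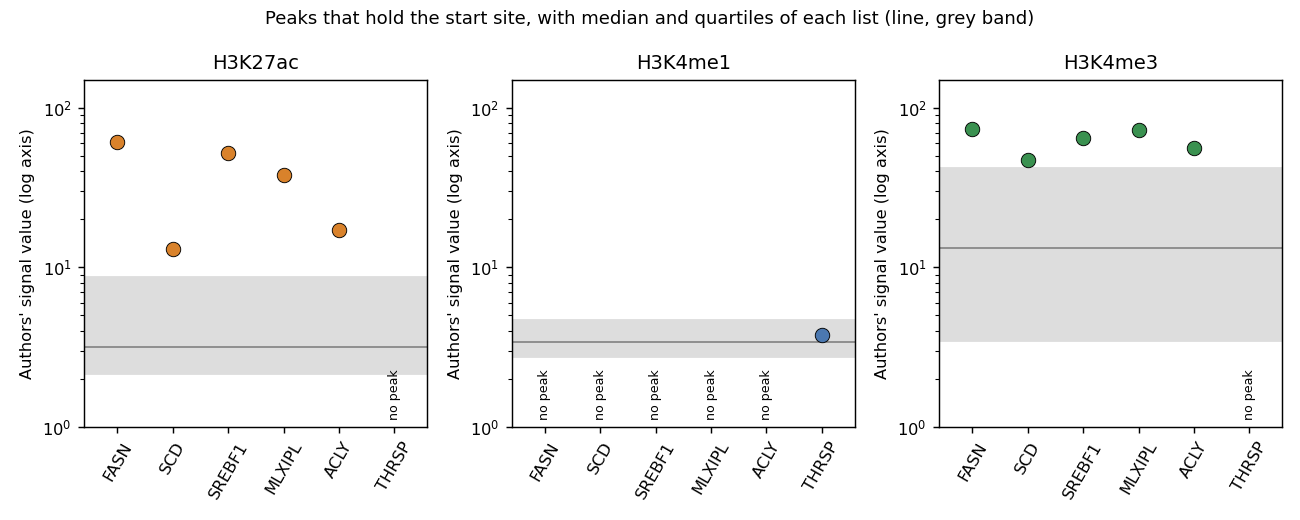
Signal value (log axis) of the peak that holds the start site of each gene, for each mark, with the median (line) and quartiles (grey band) of the whole list. The 5 H3K4me3 and 5 H3K27ac values lie above the band, and the H3K4me1 value of THRSP lies within it.

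The H3K4me3 start peaks were alike in placement, and how often other gene starts have the same placement was not computed. Each of the 5 H3K4me3 peaks reached farther downstream than upstream of the start and had its summit downstream, at 308 bp for FASN, 436 bp for SCD, 289 bp for SREBF1, 781 bp for MLXIPL and 322 bp for ACLY. The MLXIPL peak was the most one-sided, from 229 bp upstream to 2512 bp downstream. H3K27ac summits were less uniform: they were 393 bp downstream for SREBF1, 774 bp for MLXIPL and 224 bp for ACLY, but 972 bp upstream for FASN and 251 bp upstream for SCD. H3K27ac covered the whole H3K4me3 peak of FASN, SCD and SREBF1, 96.2% of that of MLXIPL and 86.5% of that of ACLY. The median over the upper quartile of H3K4me3 peaks was 90.9%.

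H3K4me1 was interrupted at the same 5 starts. None of the 5 H3K4me3 summits lay inside an H3K4me1 peak, against 40.6% of all H3K4me3 summits. All 5 lay in a gap with H3K4me1 peaks within 2000 bp on both sides, as 40.5% of summits did. Both shares are over the whole list, weak peaks included. They were not computed for its upper quartile, to which the 5 peaks belong. The gap measured 1895 bp at FASN, 1667 bp at MLXIPL, 1375 bp at ACLY, 1276 bp at SCD and 898 bp at SREBF1. Over all such gaps the median was 1396 bp (interquartile range 878 to 1952), so each of the 5 fell within the usual range. At SREBF1, MLXIPL and ACLY the gap was placed mostly downstream. The upstream H3K4me1 edge lay 130 bp, 112 bp and 403 bp from the start, the downstream edge 769 bp, 1556 bp and 973 bp. SCD leaned the same way, with edges 513 bp upstream and 764 bp downstream. At FASN the edges were nearly even, 988 bp upstream and 908 bp downstream. H3K4me1 nevertheless covered 65.2% of the H3K4me3 start peak of SCD, 59.3% of that of SREBF1 and 55.6% of that of FASN. The share was 49.3% at ACLY and 39.2% at MLXIPL, beside a median of 34.4% over the upper quartile of H3K4me3 peaks.

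**Figure D3:**
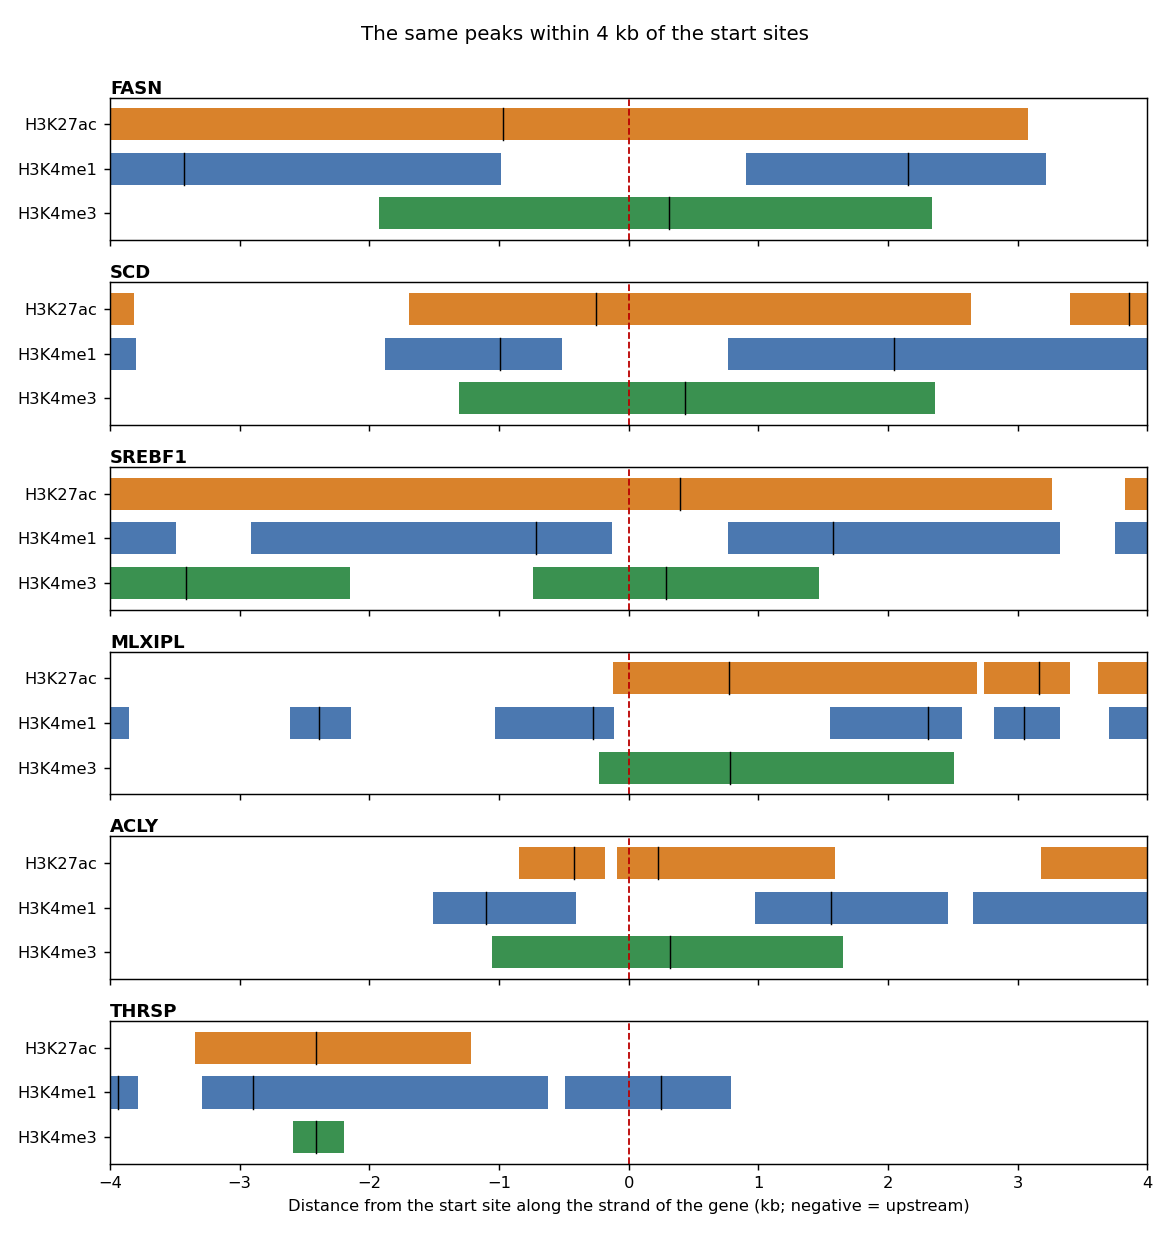
The same 3 marks within 4 kb of each start site, by distance in kb along the strand of the gene, with summits as black ticks. H3K4me1 leaves a gap of 898 to 1895 bp around 5 starts and covers that of THRSP.

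SREBF1, whose gene gives the SREBP-1a form and, from a start farther downstream, the SREBP-1c form that prevails in liver, had the window with the most H3K27ac and H3K4me1. H3K27ac covered 24.3 kb and H3K4me1 40.3 kb of it. The start peak of H3K27ac (chr17:17737060-17745261) was 8202 bp wide, wider than 99.1% of the list, and reached from 4.9 kb upstream to 3.3 kb downstream. A separate H3K4me3 peak of signal value 13.3 lay inside it 2.1 to 4.0 kb upstream. Downstream of it, 13 further H3K27ac peaks extended to the end of the window. The strongest of these reached from 10.1 to 13.3 kb downstream (chr17:17727056-17730214, signal value 25.4) and overlapped a weak H3K4me3 peak of 3.69. A further H3K27ac peak, 13.3 to 14.8 kb downstream (8.21), overlapped another of 2.81. Whether either holds the SREBP-1c start was not determined. The strongest H3K27ac peak without H3K4me3 lay 3.8 to 7.6 kb downstream (chr17:17732697-17736496, 10.5). Upstream of the start peak there was 1 H3K27ac peak, of 6.78, while H3K4me1 continued to 28.9 kb. Its strongest peak without H3K27ac lay 17.7 to 21.0 kb upstream (chr17:17758032-17761349) with a signal value of 8.11, higher than 96.4% of the list. In the RefSeq gene table the next gene upstream is TOM1L2, and the microRNA gene MIR33B lies inside SREBF1.

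At MLXIPL, H3K27ac peaks with short gaps between them ran from the start to 17.8 kb downstream. Its H3K27ac start peak (chr7:73036185-73038994) was 2810 bp wide and ended 124 bp upstream of the start. The next H3K27ac peak upstream was 23.4 kb away. Downstream of the start peak, H3K27ac peaks followed at 2.7 to 3.4 kb (signal value 5.00) and at 3.6 to 6.8 kb (3.71). An H3K27ac peak of 10388 bp (chr7:73021603-73031990) then reached from 6.9 to 17.3 kb and overlapped no H3K4me3. It was wider than 99.6% of the list, and its signal value of 20.6 was the highest of any H3K27ac peak without H3K4me3 in the 6 windows. An H3K4me1 peak of 13606 bp, signal value 9.60, covered the same stretch. Of the H3K27ac bases in the window 92.9% lay downstream of the start, the highest share of the 6 genes. At 23.4 to 24.4 kb upstream an H3K27ac peak of signal value 17.7 coincided with an H3K4me3 peak of 9.21 (chr7:73061165-73063140). The annotated span of MLXIPL in the RefSeq table begins upstream of the promoter shown above, and whether this pair marks another start was not determined. The strongest H3K4me1 peak without H3K27ac lay 20.1 to 23.3 kb upstream (chr7:73058921-73062157), with a signal value of 7.34, and shared 993 bp with H3K4me3.

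ACLY had an H3K4me3 start value above 91.2% of its list and an H3K27ac start value above 85.6%. Its H3K4me3 peak (chr17:40073618-40076327) was 2710 bp wide and held 2 H3K27ac peaks, one of 1679 bp over the start with a signal value of 17.2 and one of 665 bp, 184 to 848 bp upstream, with 5.90. The highest H3K27ac value without H3K4me3 was 6.29, at 9.5 to 12.6 kb downstream (chr17:40062685-40065725), the lowest such maximum of any window except that of FASN. H3K27ac covered 13.0 kb, the least of the 6 windows. Upstream, an H3K4me3 peak of signal value 15.3 with H3K27ac of 6.02 lay 10.5 to 12.2 kb away. The RefSeq table gives ODAD4, a gene of the ciliary dynein docking machinery, as the next gene upstream, but the annotated span of ACLY also begins upstream of the promoter shown above. Which start, if any, this site marks was not determined. Beyond it H3K4me1 appeared without acetylation, with a highest signal value of 8.59 (chr17:40095729-40099860).

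FASN had the widest single H3K27ac start peak of the 6 genes and little acetylation elsewhere in its window. That ranking is of peaks as listed. With peaks within 1000 bp joined, its start region reached from 9.2 kb upstream to 4.3 kb downstream. Joined start regions were longer at MLXIPL, 0.1 kb upstream to 17.8 kb downstream, and at SREBF1, 4.9 kb upstream to 9.1 kb downstream. As listed, the FASN start peak of 12304 bp (chr17:80053028-80065331) was wider than 99.8% of the list. This H3K27ac peak reached from 9.2 kb upstream to 3.1 kb downstream. It contained the start peak of H3K4me3 (chr17:80053763-80058032, 4270 bp) and 2 further H3K4me3 peaks, of 17.7 at 7.0 to 8.9 kb upstream and of 2.34 at 5.0 to 6.0 kb upstream. H3K4me3 covered 58.7% of its bases and H3K4me1 83.5%. The other 3 H3K27ac peaks of the window had signal values of 1.62 to 2.56 and widths of 293 to 363 bp, the highest of them 11.8 to 12.2 kb upstream (chr17:80067923-80068285). FASN was the only gene of the 6 with most of its H3K27ac upstream, 9.93 kb against 3.37 kb downstream. From 4.3 kb downstream to the end of the window there was no H3K27ac peak and 4 H3K4me1 peaks of 2.16 to 3.61. The highest of these, 20.3 to 21.7 kb away (chr17:80034433-80035811), was the strongest H3K4me1 peak without H3K27ac of the window. The next gene upstream in the RefSeq table is CCDC57.

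At SCD, as at THRSP, the strongest acetylation lay away from the start. The highest H3K27ac value in its window was 49.8, in a peak 22.9 to 28.9 kb downstream (chr10:102129717-102135641, 5925 bp), against 13.1 at the start (chr10:102105082-102109414). That downstream peak held 2 H3K4me3 peaks, of 20.3 and 4.41, both lower than the 46.9 at the SCD start, so the 2 marks ranked the sites in opposite order. The next gene downstream in the RefSeq table is OLMALINC, a long noncoding RNA gene, and whether the peak lies at its start was not determined. Upstream, an H3K27ac peak of 14.6, slightly higher than that at the start, lay 3.8 to 6.7 kb away (chr10:102100092-102102961) with a weak H3K4me3 peak of 3.46. The strongest H3K27ac peak without H3K4me3 had a value of 10.9 and lay 11.1 to 14.0 kb downstream. The strongest H3K4me1 peak without H3K27ac, of 4.47, lay 15.9 to 16.8 kb upstream (chr10:102089948-102090862). H3K4me3 covered 9.56 kb of the window, the most of the 6.

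THRSP differed from the other 5 at the start, while peaks of the 3 marks lay on both sides of it. No peak of any mark was listed from 788 to 5131 bp downstream of the start. The H3K4me1 peak over the start (chr11:77774417-77775695, 1279 bp) overlapped neither other mark and had a −log10 p-value of 11.3. The nearest H3K27ac peak lay 1.2 to 3.3 kb upstream (chr11:77771562-77773694) with a signal value of 15.2, higher than 83.8% of the list. An H3K4me3 peak of only 390 bp and 2.07 lay within it, so that the place nearest the start with both marks was weak in H3K4me3. The window held 17 H3K27ac peaks, more than any other, covering 38.3% of it, second to SREBF1. Many of them were weak: their median signal value was 2.59, below the list median of 3.15. The H3K27ac median of the FASN window was lower still, at 2.43. The strongest promoter-type site lay 13.8 to 16.9 kb downstream, with H3K27ac of 24.7 (chr11:77788670-77791837) and H3K4me3 of 48.4, which was above the H3K4me3 value at the SCD start. In the RefSeq table NDUFC2, a subunit gene of respiratory complex I, overlaps the span of THRSP, and whether this site lies at a start of NDUFC2 was not determined. The strongest H3K27ac peak without H3K4me3 was 11.2 to 13.9 kb upstream (chr11:77761032-77763748), at 12.9.

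**Figure D4:**
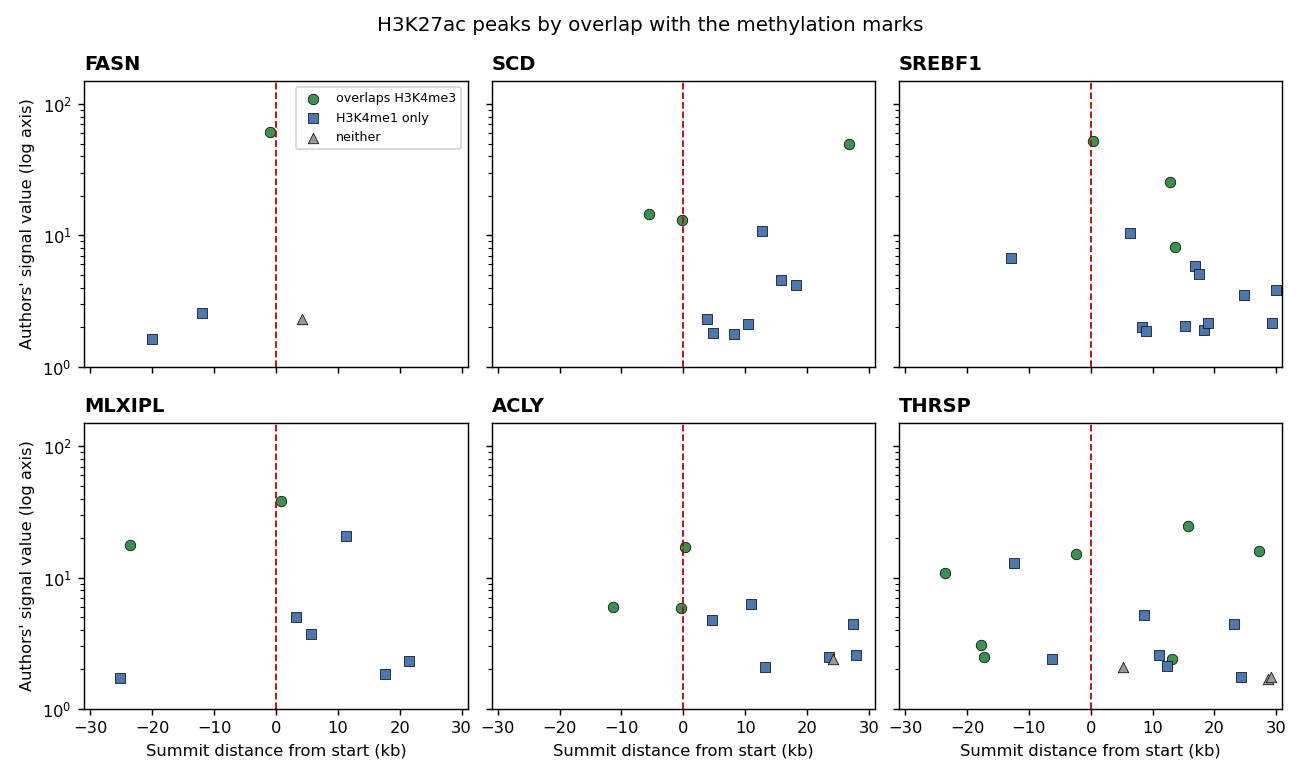
Signal value (log axis) of each H3K27ac peak against the distance of its summit from the start in kb, for the 6 genes, with symbols for overlap with H3K4me3, with H3K4me1 only, or with neither. The highest value lies at the start for FASN, SREBF1, MLXIPL and ACLY, and away from it for SCD (49.8) and THRSP (24.7).

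Over the 6 windows together, 19 of the 64 H3K27ac peaks overlapped H3K4me3, 29.7% beside 31.7% of the whole list. Another 40 overlapped H3K4me1 without H3K4me3 (62.5% beside 59.8%), and 5 overlapped neither (7.81% beside 8.52%). These shares were near those of the list. With equal numbers of peaks per list the order turned, to 16 with H3K4me3 and 9 with H3K4me1 alone. That setting shortens the H3K27ac and H3K4me1 lists and leaves the H3K4me3 list whole. List shares under it were not computed, so the turn cannot be read as particular to these windows. The median signal value was 15.2 for peaks with H3K4me3 and, for those with H3K4me1 alone, 2.56, beside list medians of 13.1 and 2.62 for the same classes. By gene, H3K4me1 without H3K4me3 accompanied 12 of 15 H3K27ac peaks at SREBF1, 6 of 8 at MLXIPL, 7 of 10 at SCD and 6 of 10 at ACLY, but 7 of 17 at THRSP and 2 of 4 at FASN.

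The H3K4me1 and H3K4me3 peaks of the windows overlapped the other marks more often than their lists. Of the 100 H3K4me1 peaks, 61 overlapped H3K27ac, beside 33.4% of the list, and 38 overlapped neither other mark, beside 61.6%. The share with H3K27ac was highest at SCD (12 of 15) and THRSP (16 of 20) and lowest at MLXIPL (8 of 19) and FASN (5 of 11). H3K4me1 peaks with H3K27ac had a median signal value of 5.80 and a median width of 1924 bp, those with neither mark 3.24 and 644 bp. In the whole list the same classes had medians of 4.45 and 1258 bp, and of 3.09 and 540 bp. All 21 H3K4me3 peaks overlapped both other marks, beside 74.1% of the list. The 16 that did not hold a start had a median signal value of 4.05 (range 1.35 to 48.4), and 6 of them were above the list median. Whether these shares differ from those around other genes was not tested.

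Coverage was set beside windows of the same width around all 24446 H3K4me3 summits, and around the 6113 summits in the upper quartile of signal value, to which the 5 H3K4me3-marked starts belong. H3K27ac covered 31.4% of the 6 windows, against a median of 9.04% around all summits and 11.5% around those of the upper quartile. Each gene exceeded both medians, from 13.0 kb at ACLY to 24.3 kb at SREBF1, and each had more than at least 77.6% of the upper-quartile windows. H3K4me1 covered 49.1%, against medians of 19.7% and 18.9%. SREBF1 had more H3K4me1 than 99.3% of the upper-quartile windows and FASN, the lowest, more than 66.4%. H3K4me3 covered 10.2%, against 6.31% and 7.74%, and ACLY (4.36 kb) had more than 45.1% of the upper-quartile windows. The shares of the 6 windows pool their bases, whereas the values beside them are medians. Median against median, the 6 windows had 19.7 kb of H3K27ac and windows around all summits 5.43 kb. For H3K4me1 these medians were 30.0 and 11.8 kb, and for H3K4me3 5.48 and 3.78 kb. The lead of the 6 windows was thus larger for H3K27ac and H3K4me1 than for H3K4me3. Summit windows overlap where summits are close together, so they are a description and not independent controls.

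**Figure D5:**
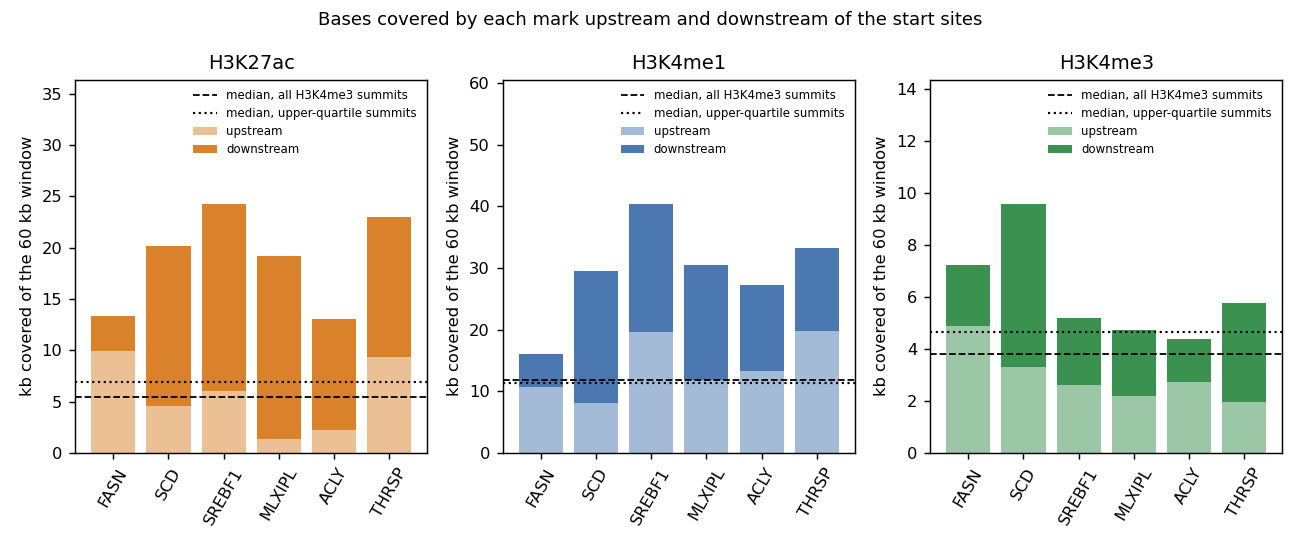
Bases covered by each mark in kb, of the 60 kb around each start, upstream (pale) and downstream (dark), with the median around all H3K4me3 summits (dashed) and those of the upper quartile (dotted). H3K27ac exceeds both medians in all 6 windows, and FASN alone has most of it upstream.

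In 5 of the 6 windows most of the acetylation lay downstream of the start. The downstream share around other starts was not computed. At SCD and THRSP the downstream bases include the strong sites whose gene was not determined. H3K27ac bases downstream of the start made up 92.9% of the total at MLXIPL, 82.8% at ACLY, 77.4% at SCD, 74.99% at SREBF1 and 59.3% at THRSP, against 25.3% at FASN. H3K4me1 was more even, between 33.2% at FASN and 72.8% at SCD. The order of the genes by H3K27ac bases, SREBF1, THRSP, SCD, MLXIPL, FASN and ACLY, depended on the width of the window. Within 10 kb FASN was second and THRSP next to last, and within 100 kb FASN was first and SCD last.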

How the data were processed

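Values came from 3 narrowPeak lists, 1 per mark, pooled over 3 libraries going by their names. Per the labels' protocols, 300 ng of sheared DNA entered each immunoprecipitation, libraries had 10 to 16 PCR cycles, and reads were paired, of 51 bp. Per the submitters' processing notes, the build was hg19 (GRCh37) and MACS2 was used. Its version and threshold, the aligner and the use of the controls are not given in the sources used here. The deposited signal value, −log10 p-value and −log10 q-value are the authors' own, and what the signal is relative to is not stated.

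Peaks were taken on chromosomes 1 to 22 and X, with positions counted from 1, and overlapped other lists where at least 1 bp was shared. Genes, windows and motifs were chosen with earlier results of these data known. All 6 genes were named, each with its start peaks, its strongest H3K27ac peak, with and without H3K4me3, and its strongest H3K4me1 peak without H3K27ac. CpG counts, H3K4me1 gaps, upper-quartile windows and other peaks named were chosen after their values were seen. Neighbouring genes came from a RefSeq GRCh38.p14 table, by name only. The planned lists of other lipogenesis genes and of cell type markers, and the share over all gene starts, were not run, since GRCh37 start sites for them were not used here. Alternatives were stricter thresholds, other windows, other overlap rules and joined peaks. The interval code was tested on simulated data. Python 3.11.15, numpy 2.4.6, pandas 2.3.3 and matplotlib 3.10.9 were used.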

Additional observations from a re-analysis of the deposited data

How the results depend on the processing

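Over 13 results, 89 alternative values were computed, all planned: 38 stayed within 1.5 times the main count or within the counting interval of the main share, and 51 moved. The order of genes was counted as stayed only where every gene kept its place. The counting interval takes each base as a separate trial and is very narrow. Small shifts in coverage, such as from 31.4% to 30.0% for H3K27ac, therefore count as moved. The number of start sites inside an H3K27ac peak and inside an H3K4me3 peak was 5 under each alternative run. Leaving out a replicate was not possible with pooled lists. No paired analysis was possible because the lists pool the 3 replicates. The depth of the libraries is unknown, so an unmarked place, such as the THRSP start, is one where no peak was listed.

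Counts within 10 kb were 23 H3K27ac, 31 H3K4me1 and 10 H3K4me3 peaks, with 8 H3K27ac peaks that overlapped H3K4me3, 13 with H3K4me1 alone and 5 H3K4me1 peaks with neither other mark. Coverage was 44.8% for H3K27ac, 57.3% for H3K4me1 and 19.0% for H3K4me3. Within 100 kb the counts were 145, 264 and 51, then 49, 86 and 124, and the coverage 19.9%, 33.8% and 8.20%. These moves follow from the width of the window. With the stronger 50% of each list there were 34 H3K27ac and 11 H3K4me3 peaks, 9 H3K27ac peaks with H3K4me3, 25 with H3K4me1 alone and 25 H3K4me1 peaks with neither mark, and coverage was 27.6%, 43.9% and 7.89%. Equal numbers of peaks per list gave 26 H3K27ac and 34 H3K4me1 peaks, 9 H3K27ac peaks with H3K4me1 alone, 9 H3K4me1 peaks with neither mark, and coverage of 24.1% for H3K27ac and 32.8% for H3K4me1. A −log10 q-value of at least 5 gave coverage of 30.0% for H3K27ac and 47.3% for H3K4me1. Joining peaks within 1000 bp gave 32 H3K27ac and 50 H3K4me1 peaks, 16 H3K27ac peaks with H3K4me1 alone, 17 H3K4me1 peaks with neither mark, and coverage of 34.1%, 53.9% and 10.6%. Fewer or joined peaks follow from how these alternatives are built. Overlap judged from summits alone, each with 200 bp around it, gave 25 H3K27ac peaks with H3K4me1 alone and 70 H3K4me1 peaks with neither mark; these windows are narrower than most peaks.

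The start sites with H3K4me1 numbered 0 with equal lists, 2 with joined peaks, 4 when a summit within 1000 bp counted and 6 when any peak within 1000 bp counted. In the order of genes by H3K27ac bases, 4 of the 6 genes kept their place under the stricter q-value, 4 with the stronger 50% of each list, 2 within 10 kb and 0 within 100 kb.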

Other observations

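The −log10 p-value ordered the H3K4me3 start peaks differently from the signal value. ACLY, next to last by signal value, had the highest −log10 p-value at 7281, followed by MLXIPL at 6539, FASN at 6147, SCD at 4927 and SREBF1 at 4713. For H3K27ac the order was the same by both measures, with FASN at 4226, SREBF1 at 2621, MLXIPL at 1926, ACLY at 1034 and SCD at 547.3.

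The H3K27ac peak 22.9 to 28.9 kb downstream of the SCD start had a −log10 p-value of 4850, above that of each H3K27ac start peak, including 4226 at FASN. The summit of its stronger H3K4me3 peak (20.3, higher than 55.9% of that list) lay inside an H3K4me1 peak of 408 bp and signal value 3.33. At THRSP the H3K4me3 summit with the signal value of 48.4 also lay inside an H3K4me1 peak, of 457 bp and signal value 1.502. That H3K4me1 peak was among the weakest of its list, at rank 182590 of 182592 by signal value, with a −log10 q-value of 0.997. Among the 21 H3K4me3 peaks of the windows, 12 had their summit inside an H3K4me1 peak, beside 40.6% of the whole list. None of these 12 held a start.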
